A study of Mus musculus with 9 samples.

Results

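Tph2, Slc6a4, Fev and Htr1a are 4 genes by which the serotonin neurons of the raphe nuclei are recognised, and they were read here from a table of 27339 genes measured in the mouse substantia nigra pars compacta. They were taken by symbol, and the set had been selected on its measured levels across the 9 libraries, so those levels and their spread are described below without a test. All 4 were present in the table. All 4 also passed the filter on low values, a mean of at least 0.5 FPKM (fragments per kilobase of transcript, scaled to the mapped fragments of each library), which left 14949 genes for testing.

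Serotonin neurons lie in the raphe nuclei along the midline of the midbrain and hindbrain, caudal and medial to the dopamine neurons of the substantia nigra, and they send fibres to most of the brain, the nigra included. They make serotonin from tryptophan, take it back up through a plasma membrane transporter and sense it through autoreceptors on their own membranes. Most of their messenger RNA is held in the cell bodies rather than in the fibres.

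The study compared RNA sequencing libraries of the substantia nigra pars compacta from mice labelled MPTP + MCT-KD (called the diet group below), mice labelled MPTP and mice labelled Ctrl, with 3 libraries in each of the 3 groups. MPTP is a toxin whose oxidised product is carried into dopamine neurons by the dopamine transporter. MCT-KD is not spelled out in the labels and is read here as a ketogenic diet with medium-chain triglycerides. No group received the diet without MPTP, and strain, age, sex, doses and timing were absent from the labels. The labels do not say whether each library came from 1 animal, so the p-values below measure only the spread between these libraries. Total counts per library ran from 33187343 to 40001344. Levels are given in CPM, the read count of a gene scaled to a common library size, with trimmed means of M values (TMM) as the scaling. Th encodes the enzyme that starts dopamine synthesis and marks the labelled tissue. It was present in every library, at 48.0 to 78.0 CPM in the diet group, 55.1 to 67.8 CPM in MPTP and 68.9 to 108 CPM in Ctrl.

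The promoters of the 4 genes are shown as background. Fev (also called Pet-1) is an ETS-domain transcription factor known to maintain Tph2 and Slc6a4 in mouse serotonin neurons. Any part of the promoters in the levels measured here was not tested. Each sequence is the RefSeq window on GRCm38.p6 from 250 bases before to 50 bases after the gene's start, read 5′ to 3′ on the gene's own strand. Capitals mark GGAA and its reverse complement TTCC, the core letters that ETS proteins recognise.
Tph2: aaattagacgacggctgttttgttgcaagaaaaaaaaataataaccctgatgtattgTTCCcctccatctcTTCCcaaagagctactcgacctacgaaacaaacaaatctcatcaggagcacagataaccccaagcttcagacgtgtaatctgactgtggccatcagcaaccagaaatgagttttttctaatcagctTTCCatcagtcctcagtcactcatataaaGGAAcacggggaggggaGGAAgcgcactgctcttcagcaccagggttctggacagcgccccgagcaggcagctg
Slc6a4: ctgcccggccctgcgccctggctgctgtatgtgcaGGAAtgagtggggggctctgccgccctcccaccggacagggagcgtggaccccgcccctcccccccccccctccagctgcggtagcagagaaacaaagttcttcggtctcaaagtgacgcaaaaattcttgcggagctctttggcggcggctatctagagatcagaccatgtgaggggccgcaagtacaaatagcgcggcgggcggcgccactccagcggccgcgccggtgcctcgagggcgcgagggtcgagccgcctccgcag
Fev: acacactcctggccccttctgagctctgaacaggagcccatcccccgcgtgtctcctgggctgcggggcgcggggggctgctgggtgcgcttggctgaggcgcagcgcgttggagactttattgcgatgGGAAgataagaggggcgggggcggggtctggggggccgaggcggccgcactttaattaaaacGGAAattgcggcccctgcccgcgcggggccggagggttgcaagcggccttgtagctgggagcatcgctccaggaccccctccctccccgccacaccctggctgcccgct
Htr1a: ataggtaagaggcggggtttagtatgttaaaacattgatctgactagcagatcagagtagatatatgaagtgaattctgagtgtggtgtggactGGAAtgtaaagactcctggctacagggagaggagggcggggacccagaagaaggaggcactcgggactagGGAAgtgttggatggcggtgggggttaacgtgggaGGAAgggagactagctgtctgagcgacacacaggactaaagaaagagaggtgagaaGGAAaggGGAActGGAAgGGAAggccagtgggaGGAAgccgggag
The windows lie at chr10:115184973-115185272 (minus strand) for Tph2, chr11:76998347-76998646 (plus strand) for Slc6a4, chr1:74885359-74885658 (minus strand) for Fev and chr13:105443443-105443742 (plus strand) for Htr1a. GGAA, counted on both strands, occurred 5 times in the Tph2 window, 1 time in that of Slc6a4, 2 times in that of Fev and 8 times in that of Htr1a. This core is common, and 96.0% of 32851 mouse promoter windows of the same length held it, with a median of 3 matches. The longer form CGGAA, each match of which also contains GGAA, was found in the Fev window alone among the 4 and in 29.9% of all windows. A TATAAA box was found on the printed strand or its complement only in the Tph2 window among the 4, against 13.6% of all windows. The Slc6a4 and Fev windows were rich in G and C (67.7% and 69.0%), while those of Tph2 (47.3%) and Htr1a (52.3%) were at or under the median of all windows, 52.7%. None of the 3 motifs searched was held by all 4 windows except GGAA, which most promoters hold.

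Tph2 encodes the tryptophan hydroxylase of neurons, the enzyme that limits the rate of serotonin synthesis, and was the most abundant of the 4 per length, with a mean of 20.3 FPKM over the 9 libraries. It stood at 14.0, 102 and 75.0 CPM in diet libraries 1, 2 and 3, at 10.6, 82.3 and 55.5 CPM in MPTP libraries 1, 2 and 3, and at 26.6, 52.0 and 86.8 CPM in Ctrl libraries 1, 2 and 3. Library 1 was the lowest of each group, and the 3 groups overlapped over most of their range. The highest library, diet 2, held 9.6 times the level of the lowest, MPTP 1. The group means were 63.6 ± 44.9 CPM in the diet group, 49.5 ± 36.3 CPM in MPTP and 55.1 ± 30.2 CPM in Ctrl (SD, n = 3 each).

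Slc6a4 encodes the serotonin transporter, which returns released serotonin to the neuron and is the target of the selective reuptake inhibitors. Its levels were 7.39, 63.7 and 48.2 CPM in diet libraries 1 to 3, 6.72, 56.7 and 31.7 CPM in MPTP libraries 1 to 3, and 12.8, 33.2 and 48.5 CPM in Ctrl libraries 1 to 3. The same 3 libraries were lowest, in the same order as for Tph2, and again no group stood apart. Group means were 39.8 ± 29.1 CPM in the diet group, 31.7 ± 25.0 CPM in MPTP and 31.5 ± 17.9 CPM in Ctrl (SD, n = 3 each). The span from lowest to highest was 9.48-fold, and the mean over all libraries was 11.9 FPKM.

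Fev was expressed at the lowest level per length, with a mean of 1.82 FPKM. It had 0.662, 4.03 and 3.95 CPM in diet libraries 1 to 3, 0.367, 3.56 and 3.28 CPM in MPTP libraries 1 to 3, and 1.05, 2.41 and 4.29 CPM in Ctrl libraries 1 to 3. The low libraries rest on few reads, 23 in diet library 1, 13 in MPTP library 1 and 42 in Ctrl library 1, against 93 to 150 elsewhere. The exact Poisson 95% intervals, which cover counting error only, were 0.419 to 0.993 CPM in diet library 1 and 0.196 to 0.628 CPM in MPTP library 1. These intervals overlap, and both lie under the level of every library numbered 2 or 3. Group means were 2.88 ± 1.92 CPM in the diet group, 2.40 ± 1.77 CPM in MPTP and 2.58 ± 1.63 CPM in Ctrl (SD, n = 3 each). The span over libraries was 11.7-fold in CPM. It was 14.2-fold in the deposited FPKM, in which the transcript length implied for Fev varied 1.18-fold between libraries.

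Htr1a encodes the inhibitory serotonin receptor that serves as autoreceptor on raphe neurons and also sits on neurons that receive serotonin in other regions. Of the 4 genes it is thus the least particular to serotonin neurons. It stood at 4.12, 5.08 and 5.82 FPKM in diet libraries 1 to 3, at 3.13, 5.33 and 5.50 FPKM in MPTP libraries 1 to 3, and at 4.16, 5.26 and 5.57 FPKM in Ctrl libraries 1 to 3. The direction was that of the other 3 genes, with library 1 lowest in each group, but the span was much smaller, at 1.86-fold in FPKM and 1.85-fold in CPM. Group means were 23.9 ± 4.02 CPM in the diet group, 21.8 ± 5.91 CPM in MPTP and 23.5 ± 3.36 CPM in Ctrl (SD, n = 3 each). Its mean of 4.89 FPKM lay between those of Slc6a4 and Fev.

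**Figure D1:**
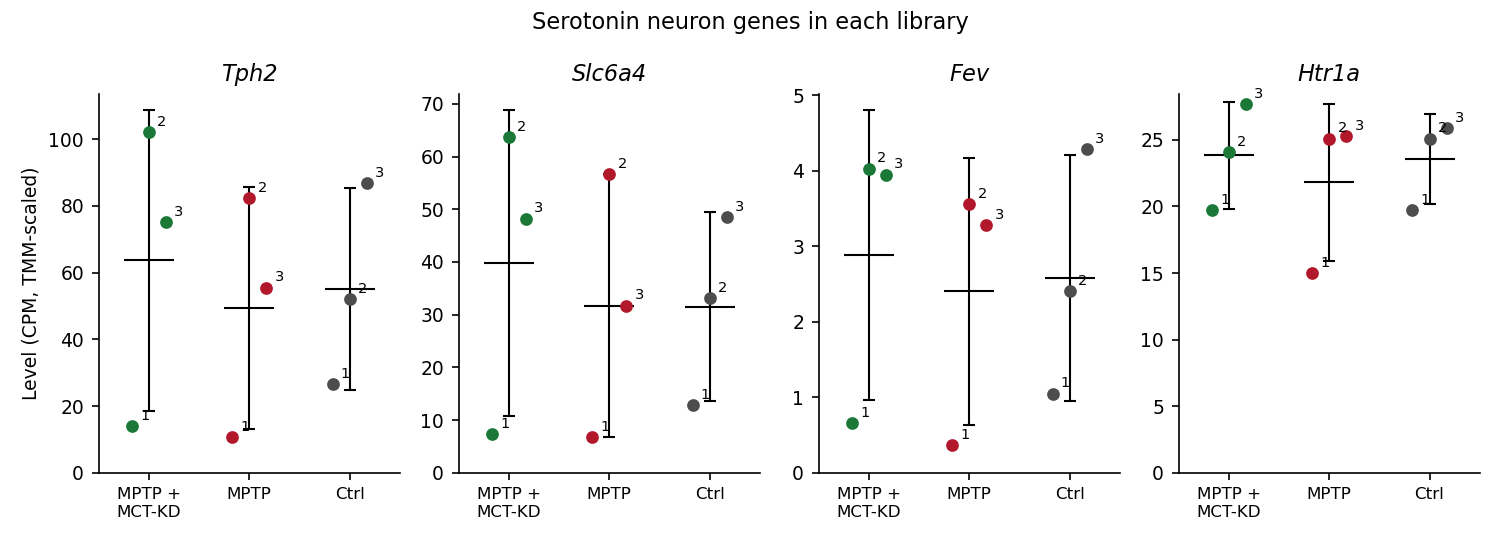
Level of Tph2, Slc6a4, Fev and Htr1a in each library (vertical axes, TMM-scaled CPM, each starting at 0) in the diet, MPTP and Ctrl groups; points are libraries with their label number, horizontal lines are group means and bars are ± 1 SD over 3 libraries. Library 1 is the lowest point of every group in every panel, and the ranges of the groups overlap, for example 14.0 to 102 CPM in the diet group, 10.6 to 82.3 CPM in MPTP and 26.6 to 86.8 CPM in Ctrl for Tph2.

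For Tph2, Slc6a4 and Fev the libraries fell into a lower set of 3, all numbered 1, and a higher set of 6, with a gap between them: for Tph2, Ctrl library 1 at 26.6 CPM was followed by Ctrl library 2 at 52.0 CPM. Within the lower set the order was the same for these 3 genes, with MPTP 1 lowest, diet 1 next and Ctrl 1 above both. Within the higher set the order changed from gene to gene, with diet library 2 highest for Tph2 (102 CPM) and Slc6a4 (63.7 CPM), Ctrl library 3 highest for Fev (4.29 CPM) and diet library 3 highest for Htr1a (27.7 CPM). The labels do not say what the library numbers stand for. In bulk tissue, fewer serotonin neurons in a library and less RNA per neuron cannot be told apart.

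Among the 14949 tested genes, the SD of the log2 level over the 9 libraries was 1.20 for Tph2, 1.27 for Slc6a4 and 1.25 for Fev, ranks 110, 97 and 101 from the most variable. The median tested gene had an SD of 0.129. Htr1a had an SD of 0.281 and rank 2793. The share of the variance of the log2 level that lay within the groups was 97.1% for Tph2, 98.8% for Slc6a4, 97.4% for Fev and 92.9% for Htr1a, against a median of 75.6% over tested genes. These values describe how the members were picked as much as how they behaved, and are given for scale.

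Tph2, Slc6a4 and Fev kept similar proportions to each other over their whole span, as the plot of each gene against Tph2 shows. The ratio of Slc6a4 to Tph2 in FPKM ran from 0.464 to 0.662 over the 9 libraries with a median of 0.602, a 1.43-fold range. Fev to Tph2 ran from 0.0592 to 0.114, a 1.93-fold range. Htr1a to Tph2 ran from 0.139 to 0.827, a 5.95-fold range, with its highest value in MPTP library 1, where Tph2 was lowest. Levels of Slc6a4 and Fev thus went up and down with Tph2 in near proportion, and those of Htr1a did not. No test is given for these ratios, since the levels chose the genes.

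**Figure D2:**
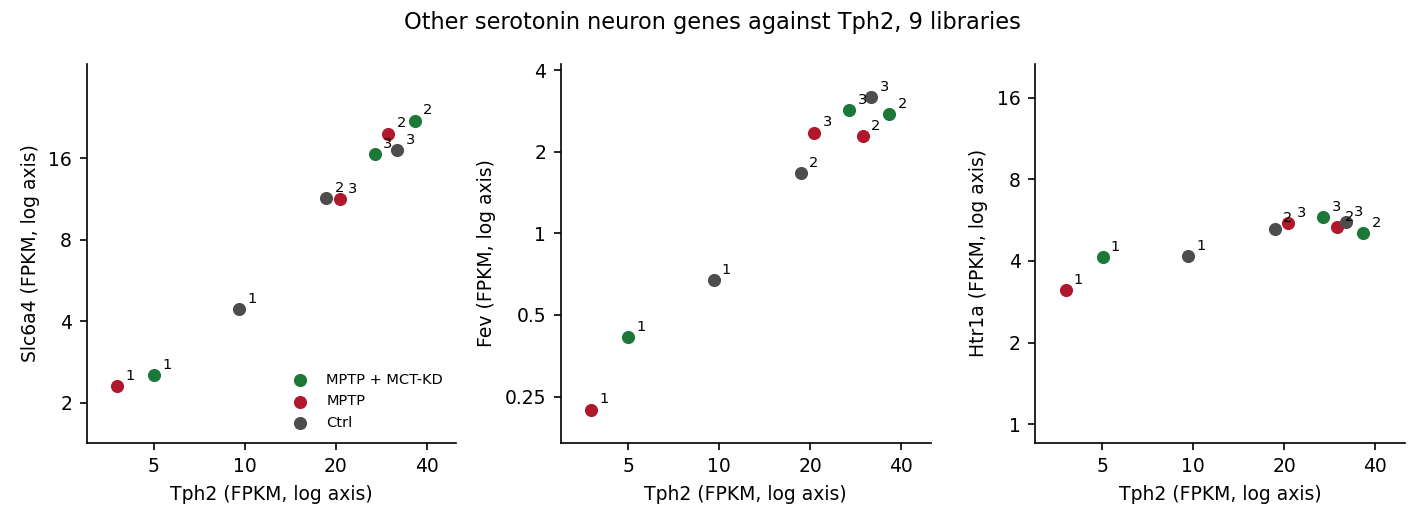
Slc6a4, Fev and Htr1a (vertical axes, FPKM, log scale) against Tph2 (horizontal axes, FPKM, log scale) in the 9 libraries; colours mark the diet, MPTP and Ctrl groups and digits the library numbers. Slc6a4 and Fev climb with Tph2 from the libraries numbered 1 to the others, whereas Htr1a stays between 3.13 and 5.82 FPKM.

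Correlations are given as a description over 9 libraries that share tissue and processing. The log2 levels of Tph2 and Slc6a4 had a Pearson r of 0.993 and a Spearman rho of 0.967. Those of Tph2 and Fev had an r of 0.987 and a rho of 0.967. Among 13809 other genes, Slc6a4 was the one most like Tph2 by r and Fev the next, and Htr1a ranked 13. The members were chosen with these levels known, so their ranks to one another are no test. Diet library 1 and MPTP library 1 were the 2 farthest from the median of the members' mean. Without them, r with Tph2 was 0.988 for Slc6a4, 0.955 for Fev and 0.755 for Htr1a. For Htr1a the nearest gene of all was Fev (r = 0.952, rho = 0.767).

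Group differences were read from edgeR's quasi-likelihood fit over all 14949 tested genes and 9 libraries, with Benjamini-Hochberg adjustment over those genes. None of the 4 genes was called at an adjusted p of 0.05 in any of the 3 comparisons, and none had an unadjusted p under 0.05. In the background, 0.0134% of tested genes were called in MPTP against Ctrl (2 genes, both lower), 0.0% in the diet group against MPTP and 0.0% in the diet group against Ctrl. At an unadjusted p under 0.05 the background was 5.36% in MPTP against Ctrl, 7.78% in the diet group against MPTP and 6.73% in the diet group against Ctrl. Neither DESeq2 nor limma called a member in any of them.

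MPTP against Ctrl asks whether the toxin is accompanied by a change in the serotonin genes. Tph2 had a log2 fold change of -0.16 (SE 0.962, edgeR adjusted p = 0.994), with means of 49.5 CPM in MPTP and 55.1 CPM in Ctrl. Fitted values were 0.0094 for Slc6a4 (SE 1.02, edgeR adjusted p = 0.999), -0.10 for Fev (SE 0.966, edgeR adjusted p = 0.997) and -0.11 for Htr1a (SE 0.217, edgeR adjusted p = 0.975). The standard errors of the first 3 genes were near 1 on the log2 scale, so a difference of 2-fold in either direction was not detectable for them. Each of these signs turned on single libraries. Tph2 was at 0.33 without Ctrl 3 and at -0.73 without MPTP 2. Slc6a4 was at 0.49 without MPTP 1 and at -0.71 without MPTP 2. Fev was at 0.47 without Ctrl 3, and Htr1a at 0.10 without MPTP 1.

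The diet group against MPTP asks what the diet adds in mice given the toxin. The main fit took the libraries as unpaired. Here the members were fitted at 0.36 for Tph2 (SE 0.961, edgeR adjusted p = 0.950), 0.33 for Slc6a4 (SE 1.02, edgeR adjusted p = 0.962), 0.26 for Fev (SE 0.965, edgeR adjusted p = 0.968) and 0.13 for Htr1a (SE 0.217, edgeR adjusted p = 0.918). Same-numbered libraries were also set side by side. Tph2 in the diet library was 1.32, 1.23 and 1.35 times that in the MPTP library for numbers 1, 2 and 3. The same ratios were 1.10, 1.12 and 1.52 for Slc6a4 and 1.80, 1.13 and 1.20 for Fev. These 3 genes were higher in the diet library for 3 of 3 numbers, and Htr1a for 2 of 3, with ratios of 1.32, 0.961 and 1.10. The labels do not say that a number pairs libraries, and the share of all tested genes with such an order was not computed. Tph2, Slc6a4 and Fev moved together over the 9 libraries (Pearson r of 0.976 to 0.993), so they are not 3 separate agreements. A fit of these 2 groups alone with the library number as a block was added after seeing the data. In it Tph2 had a log2 fold change of 0.38 and an edgeR adjusted p of 0.140. The edgeR adjusted p was 0.483 for Slc6a4, 0.728 for Fev and 0.699 for Htr1a. That fit called 11 genes, none of them a member. Without diet library 2 the values were -0.15 for Tph2 and -0.18 for Slc6a4, and without MPTP library 1 they were -0.25 for Fev and -0.077 for Htr1a. Without MPTP library 2, Tph2 was at 0.94 and Slc6a4 at 1.05.

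The diet group against Ctrl shares libraries with both comparisons above. Tph2 was fitted at 0.21 (SE 0.958, edgeR adjusted p = 0.974), Slc6a4 at 0.34 (SE 1.01, edgeR adjusted p = 0.963), Fev at 0.16 (SE 0.961, edgeR adjusted p = 0.980) and Htr1a at 0.02 (SE 0.216, edgeR adjusted p = 0.991). Same-numbered libraries did not point one way: Tph2 in the diet library was 0.527, 1.95 and 0.864 times that in the Ctrl library for numbers 1, 2 and 3. The group ranges of all 4 members overlapped in all 3 comparisons, where 10.5%, 13.7% and 12.7% of tested genes had groups that did not overlap. Leaving out diet library 2 turned Tph2 to -0.30 and Slc6a4 to -0.17, leaving out Ctrl library 1 turned Fev to -0.21, and leaving out diet library 3 turned Htr1a to -0.10.

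**Figure D3:**
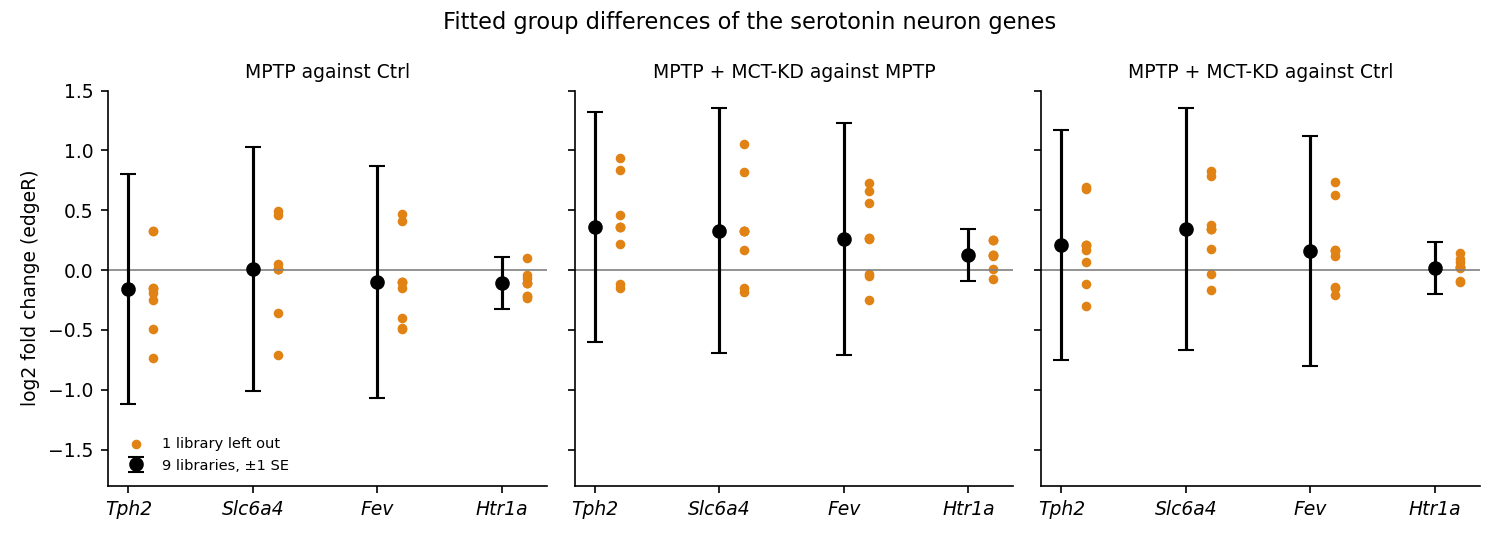
Fitted log2 fold change (vertical axis, edgeR) of each gene in MPTP against Ctrl, the diet group against MPTP and the diet group against Ctrl; black points are fits of 9 libraries with ± 1 SE and orange points are fits with 1 library left out. The error bars cross 0 for every gene, and the orange points lie on both sides of 0.

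A list of 41 other genes of serotonin synthesis, storage, regulation and sensing was read in the same fit, and 36 of them passed the filter. None was called in any comparison (smallest edgeR adjusted p 0.790 in MPTP against Ctrl, 0.638 in the diet group against MPTP and 0.740 in the diet group against Ctrl). In MPTP against Ctrl, 9 of the 36 were above and 27 below the Ctrl level, beside 7410 above and 7539 below over all tested genes. Their median log2 fold change was -0.17, beside -0.00092 over all tested genes, and 4 of them had an unadjusted p under 0.05 (Htr2c, Htr1b, Slc10a4 and Ddc, all below Ctrl). The diet group against MPTP had 21 above and 15 below (median 0.046), with Maoa alone at an unadjusted p under 0.05. The diet group against Ctrl had 8 above and 28 below (median -0.14), with Slc10a4, Htr2c and Maoa at an unadjusted p under 0.05, all below Ctrl. Over all tested genes these medians were 0.00056 and -0.0015, with 7497 above and 7452 below, and 7402 above and 7547 below. The share of all tested genes with an unadjusted p under 0.05 was 5.36% in MPTP against Ctrl. It was 7.78% in the diet group against MPTP and 6.73% in the diet group against Ctrl.

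Several genes of the list are shared with dopamine neurons. Ddc, the decarboxylase that makes both dopamine and serotonin, averaged 88.1 CPM in the diet group, 85.2 CPM in MPTP and 112 CPM in Ctrl. Its log2 fold change in MPTP against Ctrl was -0.39 (SE 0.159, edgeR adjusted p = 0.904). Slc18a2, the vesicular monoamine transporter, ran from 85.3 to 117 CPM in the diet group, 70.0 to 108 CPM in MPTP and 102 to 119 CPM in Ctrl, and its lowest library was MPTP 1, as it was for Ddc (66.9 CPM). Gch1, which starts synthesis of the tetrahydrobiopterin cofactor of both hydroxylases, stood at 7.51 to 11.9 CPM in 8 libraries and at 19.8 CPM in Ctrl library 3. Slc6a3, the dopamine transporter, was at 143, 97.6 and 86.1 CPM in diet libraries 1 to 3, 126, 116 and 92.9 CPM in MPTP libraries 1 to 3, and 181, 158 and 129 CPM in Ctrl libraries 1 to 3. Within each group it was highest in library 1, where the serotonin genes were lowest, as were Aldh1a1 and Drd2, 3 of the 12 dopamine genes listed. How many of all tested genes had that order was not computed. Other dopamine genes differed: Th was lowest of its group in MPTP library 1 (55.1 CPM), and Nr4a2 and Sncg were lowest of all 9 libraries there. The log2 fold change of Slc6a3 was -0.49 in MPTP against Ctrl (SE 0.232, edgeR adjusted p = 0.913), and that of Th was -0.48 (SE 0.225, edgeR adjusted p = 0.913). For both, the MPTP libraries lay below all Ctrl libraries. Groups did not overlap for 10.5% of all tested genes in this comparison.

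Of the enzymes that break serotonin down, Maoa (monoamine oxidase A, the form that prefers serotonin) was at 52.8, 56.3 and 52.3 CPM in the diet group, 59.8, 57.8 and 58.8 CPM in MPTP, and 62.6, 57.4 and 61.4 CPM in Ctrl. The diet libraries lay below all others, with a log2 fold change of -0.13 against MPTP (SE 0.0590, edgeR adjusted p = 0.638) and -0.17 against Ctrl (SE 0.0589, edgeR adjusted p = 0.740), neither of which passed. Groups did not overlap for 13.7% and 12.7% of all tested genes in these comparisons. Maob, which serotonin neurons also contain in rodents, ran from 44.1 to 60.3 CPM in the diet group, 45.9 to 58.3 CPM in MPTP and 45.7 to 54.0 CPM in Ctrl, with full overlap.

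Among the transcription factors of serotonin neurons, Gata2 stood at 10.6, 13.3 and 14.8 CPM in diet libraries 1 to 3, 9.91, 13.4 and 13.8 CPM in MPTP libraries 1 to 3, and 10.2, 12.3 and 12.9 CPM in Ctrl libraries 1 to 3. It was lowest in library 1 of each group, as the members were, over a smaller span of 1.49-fold. En2, an engrailed factor of the midbrain and rostral hindbrain, was also lowest in library 1 of each group, at 7.68 CPM in the diet group, 6.86 CPM in MPTP and 8.75 CPM in Ctrl, against 9.55 to 13.9 CPM elsewhere. Gata3 was lowest in library 1 of each group too, at 10.8 CPM in the diet group, 9.97 CPM in MPTP and 10.2 CPM in Ctrl, against 11.8 to 19.0 CPM elsewhere. Of the 9 transcription factors listed, these 3 had that order, and its share over all tested genes was not computed. Lmx1b and En1, which dopamine neurons share, did not show that order in Ctrl, where library 1 held 11.8 and 11.1 CPM and was not the lowest. Nkx2-2 ran from 8.15 to 11.9 CPM over all libraries, and library 1 was the lowest in MPTP and Ctrl but the highest in the diet group.

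The receptors are carried mostly by neurons that receive serotonin. Of the 13 listed, 10 passed the filter. Their Pearson r to the mean of the 4 members over the 9 libraries ran from -0.744 for Htr5b to 0.735 for Htr2a, as a description. Of the 13, 2 had the order of the members, lowest in library 1 of each group: Htr3a (r = 0.688) and Htr1f, which did not pass the filter. How many of all tested genes had this order was not computed. Htr2c, abundant in midbrain and choroid plexus, was at 158 to 162 CPM in the diet group, 147 to 158 CPM in MPTP and 167 to 192 CPM in Ctrl. Both groups given MPTP lay below every Ctrl library, with log2 fold changes against Ctrl of -0.14 in the diet group (edgeR adjusted p = 0.740) and -0.20 in MPTP (edgeR adjusted p = 0.790). Over all tested genes, 12.7% and 10.5% had groups that did not overlap in these comparisons. Htr2c was highest in Ctrl library 3 (192 CPM), which also had the highest choroid plexus sum (1220 CPM). The part of that tissue in its level was not tested. Htr1b, a terminal autoreceptor, averaged 24.4 CPM in the diet group, 22.0 CPM in MPTP and 26.9 CPM in Ctrl. Htr1d, another autoreceptor of terminals, ran from 3.12 to 4.51 CPM over the 9 libraries. Htr5b ran against the members, with its highest level, 6.30 CPM, in MPTP library 1 and its lowest, 2.59 CPM, in diet library 3.

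Tph1, the tryptophan hydroxylase of the pineal gland and gut, was at 48.7 CPM in Ctrl library 3 and at 0 to 2.53 CPM in the other 8. It had no counts in diet library 1 and Ctrl library 1, where 3 counts would amount to 0.0863 and 0.0748 CPM. The pineal enzyme gene Asmt, which completes melatonin, was likewise at 2.95 CPM in Ctrl library 3 and at 0 to 0.149 CPM elsewhere, whereas Aanat ran from 0.299 to 1.13 CPM with Ctrl library 3 inside that range. Summed levels of 6 choroid plexus genes were 1220 CPM in Ctrl library 3 and 26.7 to 101 CPM elsewhere. Tph2 in that library (86.8 CPM) did not stand out from diet library 2 (102 CPM) or MPTP library 2 (82.3 CPM), and the part of this other tissue in its level was not tested.

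**Figure D4:**
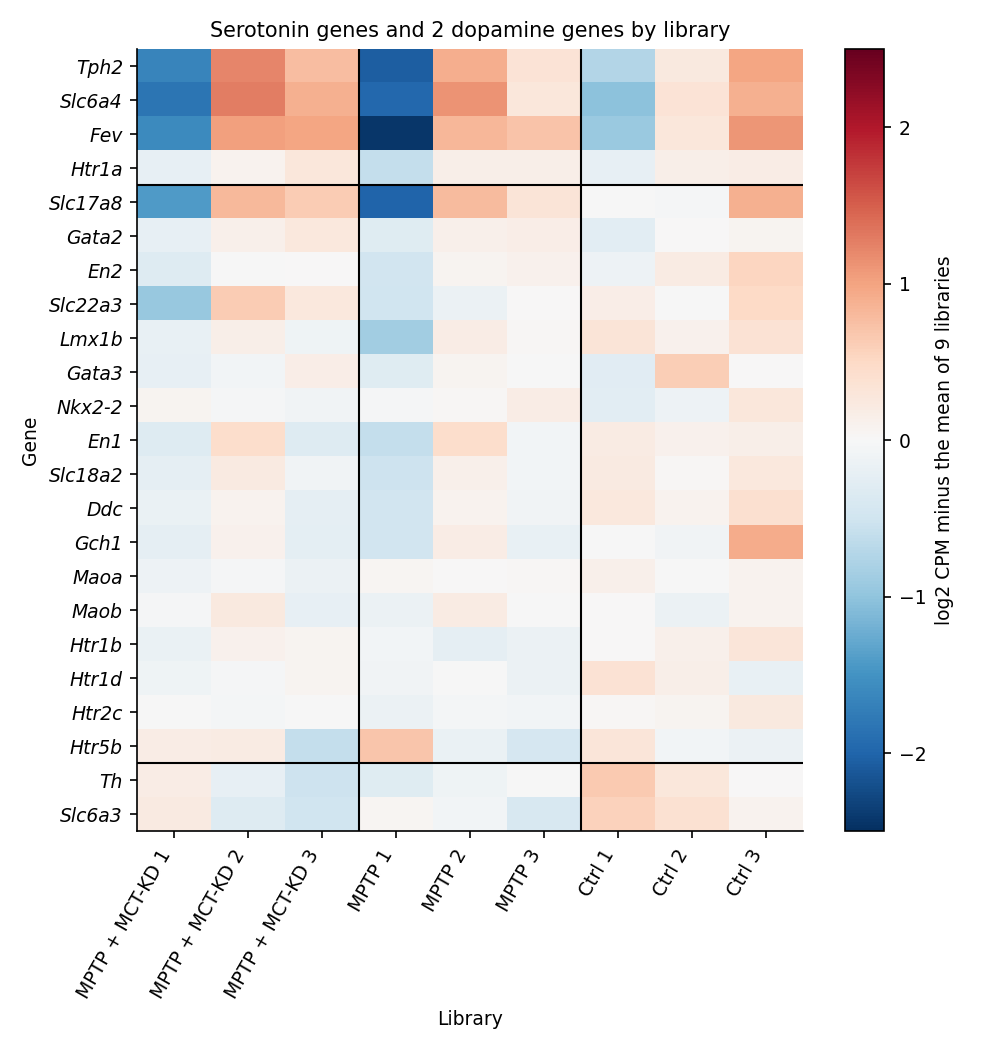
Heat map of log2 CPM minus the mean of the 9 libraries (colour scale, log2 units), by library (columns, diet, MPTP and Ctrl from left to right). Rows are the 4 members, the preset genes of the pathway list except Tph1, Aanat and Asmt, and the dopamine genes Th and Slc6a3. Tph2, Slc6a4, Fev and Slc17a8 are darkest blue in MPTP library 1 and diet library 1, and Th and Slc6a3 are highest in Ctrl library 1.

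Slc17a8 was the gene outside the 4 most like their mean, among 13810 genes ranked by Pearson r of log2 levels over the 9 libraries. It encodes the vesicular glutamate transporter VGLUT3, which many serotonin neurons carry. It stood at 3.85, 18.0 and 16.0 CPM in diet libraries 1 to 3, 2.57, 17.9 and 12.8 CPM in MPTP libraries 1 to 3, and 10.2, 10.1 and 19.1 CPM in Ctrl libraries 1 to 3, a 7.41-fold span with r = 0.959 and rho = 0.967. Its ratio to Tph2 ran from 0.104 to 0.226 in FPKM, and Ctrl library 1 was not below Ctrl library 2, unlike in the members.

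The remaining 14 of the 15 most similar genes were Gja1, Vwa5a, Plekhh3, Ankrd12, Acacb, Rnf213, Lyst, Gata2, Cd9, Vasn, Capsl, Ggta1, Gchfr and Acox3, with r from 0.897 to 0.958. Of these, 12 spanned 1.10-fold to 1.65-fold from the lowest to the highest library, with the smallest span in Gja1, the astrocyte gap junction protein connexin 43. Gchfr, which encodes the feedback regulator of the Gch1 enzyme and so acts on the cofactor of Tph2, spanned 6.13-fold (r = 0.901), and Capsl spanned 4.12-fold. The 5 least similar genes were Evl, Cx3cl1, Gpr12, Timm10 and Kctd12b, with r from -0.955 to -0.938 and spans of 1.12-fold to 1.68-fold. Diet library 1 and MPTP library 1 were then left out, a choice made after seeing the data. Slc17a8 then had r = 0.840 and Gata2 r = 0.857, and 1 of the 15 genes was still among the 15 most similar. The list thus rests on those libraries.

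Markers of neighbouring tissue were summed in each library beside the serotonin genes. The 3 libraries with the lowest sums of the 4 serotonin genes were diet 1 (41.8 CPM), MPTP 1 (32.7 CPM) and Ctrl 1 (60.1 CPM), against 113 to 194 CPM in the other 6. The same 3 libraries had the highest sums of 8 thalamic genes, at 1150 CPM in diet 1, 1210 CPM in MPTP 1 and 922 CPM in Ctrl 1, against 622 to 911 CPM in the others. They also had the highest sums of 4 hypothalamic genes, at 208 CPM in diet 1, 307 CPM in MPTP 1 and 324 CPM in Ctrl 1, against 35.6 to 190 CPM in the others. Thalamus and hypothalamus lie rostral or dorsal to the nigra, and raphe nuclei caudal to it. Prkcd, the most abundant thalamic gene listed, was at 395 CPM in diet 1, 479 CPM in MPTP 1 and 313 CPM in Ctrl 1, against 146 to 310 CPM elsewhere. Pmch, a neuropeptide gene of lateral hypothalamic neurons, was at 154 CPM in diet 1, 210 CPM in MPTP 1 and 253 CPM in Ctrl 1, against 29.4 to 135 CPM elsewhere. These are the sums, and not every listed gene had that order. Of the 8 thalamic genes, 6 were highest in library 1 of each group; Lef1 was not in Ctrl, and Calb2 was lowest of all 9 libraries in MPTP 1 (157 CPM). Of the 4 hypothalamic genes, Hcrt and Pmch were highest in library 1 of each group, while Avp and Oxt were highest in library 3 among MPTP libraries. How many of all tested genes had such an order was not computed. As a description, Pearson r to the mean of the members over the 9 libraries ran from -0.799 to 0.254 for the thalamic genes. It ran from -0.688 to -0.488 for the hypothalamic genes. Without diet library 1 and MPTP library 1, it ran from -0.349 to 0.286 and from -0.529 to -0.342. The thalamic values thus rest largely on those libraries. The part of neighbouring tissue in the serotonin levels was not tested.

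Other lists were summed in the same way. Summed noradrenergic genes, whose cells lie caudal to the raphe neurons nearest the nigra, were at 0.144 to 0.686 CPM in the diet group, 0.113 to 1.09 CPM in MPTP and 0.156 to 0.499 CPM in Ctrl. The lowest sums were in MPTP 1 (0.113 CPM) and diet 1 (0.144 CPM), while Ctrl 1 (0.499 CPM) was the highest of its group. Dbh, their defining enzyme, had no counts in 7 of 9 libraries. Hox genes of the hindbrain summed to 0.0 to 10.1 CPM in the diet group, 0.0301 to 4.66 CPM in MPTP and 0.449 to 3.94 CPM in Ctrl, with no counts in diet library 1. They were highest in diet library 2, which also had the most Tph2, but nearly absent from MPTP library 2 at 0.0301 CPM, where Tph2 was 82.3 CPM. The 2 peptides of the Edinger-Westphal nucleus, a midline midbrain nucleus, summed to 57.5 to 102 CPM in the diet group, 17.5 to 111 CPM in MPTP and 47.5 to 98.7 CPM in Ctrl, with the single low value in MPTP library 1. The 12 dopamine genes summed to 718 to 883 CPM in the diet group, 764 to 870 CPM in MPTP and 896 to 1070 CPM in Ctrl. Meningeal sums were 96.7 CPM in diet library 1 and 75.2 CPM in MPTP library 1, the lowest of their groups, but 224 CPM in Ctrl library 1, the highest of its group.

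Sums of the other lists spanned the libraries as follows. Oligodendrocyte genes ran from 10300 to 11400 CPM in the diet group, 8730 to 10600 CPM in MPTP and 8110 to 10000 CPM in Ctrl, with MPTP 1 in the middle of its group. Microglial genes ran from 152 to 162 CPM in the diet group, 149 to 154 CPM in MPTP and 124 to 150 CPM in Ctrl. Cholinergic motor neuron genes ran from 30.6 to 40.0 CPM in the diet group, 30.2 to 48.8 CPM in MPTP and 31.8 to 48.3 CPM in Ctrl, and cerebellar genes from 5.26 to 10.3 CPM in the diet group, 5.67 to 7.12 CPM in MPTP and 6.15 to 9.04 CPM in Ctrl. Pineal genes ran from 12.7 to 15.3 CPM in the diet group, 12.2 to 16.5 CPM in MPTP and 15.6 to 84.5 CPM in Ctrl, with the high value in Ctrl library 3. None of these lists had library 1 at the bottom of all 3 groups.

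**Figure D5:**
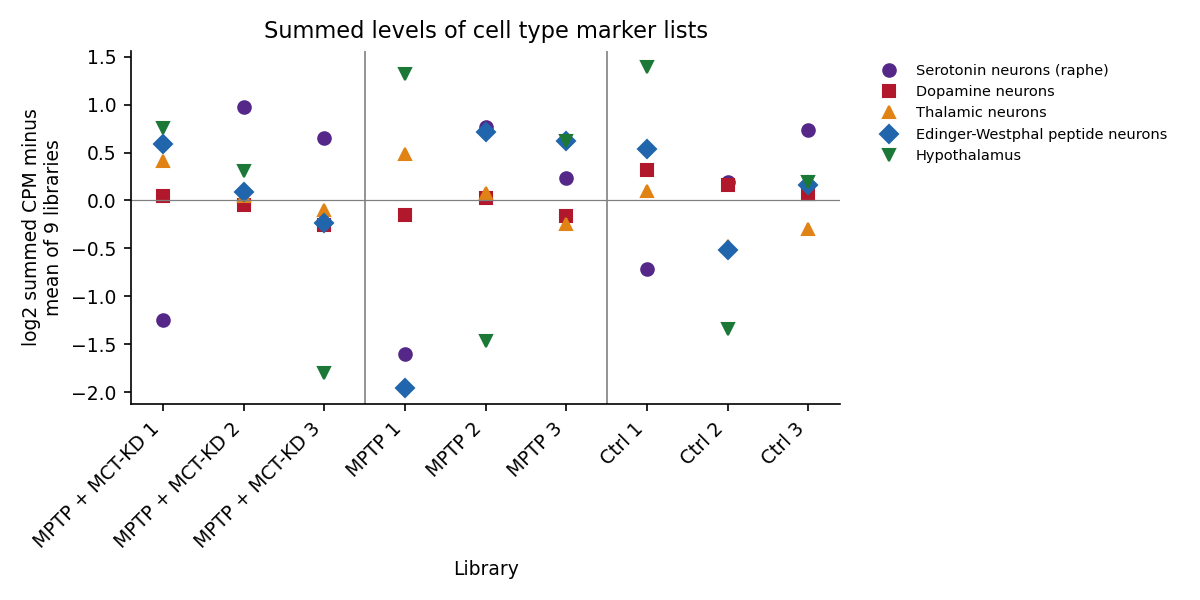
Log2 summed CPM of 5 marker lists minus the mean of the 9 libraries (vertical axis, log2 units) by library (horizontal axis, diet, MPTP and Ctrl from left to right). In each group the serotonin sum (purple circles) is lowest in library 1, while the thalamic (orange triangles) and hypothalamic (green inverted triangles) sums are highest there.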

How the data were processed

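RNA of the substantia nigra pars compacta was sequenced in 9 libraries after column extraction and NEBNext Ultra library preparation, per the labels' protocols. The authors deposited raw read counts and FPKM for each gene and library, per the file headers. Reads were placed on mm10 (GRCm38), per the submitters' processing notes. For the aligner, counter, annotation release and strand setting, details were not given in the sources used here, so a gene and an overlapping or antisense gene may share reads. Groups came from the treatment label. Lines that named no gene (10) were left out.

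From the deposited counts, CPM with TMM scaling (factors 0.9835 to 1.015) and edgeR 4.0.16 quasi-likelihood tests with robust moderation were computed in R 4.3.3 over all 9 libraries, for genes with a mean of at least 0.5 FPKM. Such genes held all but 0.189% to 0.244% of the counts. Fold changes are the first group over the second, with Benjamini-Hochberg adjustment over 14949 genes. The procedure was tested on simulated data in which all genes shared 1 coefficient of variation (0.134). That setting does not cover Tph2, Slc6a4 and Fev, whose log2 SDs were 1.20, 1.27 and 1.25. Alternatives were RLE scaling, DESeq2 1.42.0, limma 3.58.1 on log2(FPKM + 0.5) and log2(FPKM + 1), no filter, a minimum of 1 FPKM, no robust moderation, the 2 groups alone, a replicate block, both of these together (added after seeing the data), and each library left out.

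The members, gene lists and marker lists were chosen with earlier results of these data known. Named were the members, preset genes of the pathway list, the 15 genes most and 5 least like the mean of the members by Pearson r of log2 CPM, the top genes of marker lists, Th and Slc6a3. Sums of markers are TMM-scaled CPM. Promoters came from RefSeq (GRCm38.p6), matched by symbol for 4 of 4 members.

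No 2 libraries of a group agreed within sampling noise (lowest chi-square per degree of freedom 11.77). The labels do not say that a number marks a shared animal or day. Deviations from group means of same-numbered diet and MPTP libraries correlated over genes at 0.182, 0.107 and 0.113, all over 0.1. Differently numbered diet and MPTP libraries ran from -0.149 to 0.041. A value over 0.1 does not mark a shared number, since MPTP 1 with Ctrl 2 was at 0.186 and MPTP 2 with Ctrl 3 at 0.144. Pairing of diet and MPTP libraries by number is thus only a hint from the same data. It was used for the side-by-side ratios and the block, and not for the main fit.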

Additional observations from a re-analysis of the deposited data

How the results depend on the processing

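No member was called under any of 19 alternatives in any comparison: of 228 values, 195 kept their direction and 33 turned. With 1 library left out, MPTP against Ctrl ran from -0.73 to 0.33 for Tph2, -0.71 to 0.49 for Slc6a4, -0.49 to 0.47 for Fev and -0.23 to 0.10 for Htr1a. The diet group against MPTP ran from -0.15 to 0.94, -0.18 to 1.05, -0.25 to 0.73 and -0.077 to 0.25 for the same genes, and the diet group against Ctrl from -0.30 to 0.69, -0.17 to 0.83, -0.21 to 0.74 and -0.10 to 0.14. Slc6a4 in MPTP against Ctrl turned to -0.21 and -0.18 with limma at pseudocounts of 0.5 and 1, -0.26 with the replicate block and -0.22 with the block in the 2 groups alone. Tph2 in the diet group against Ctrl turned to -0.055 and -0.041 with limma, -0.086 with the block and -0.012 with the block in the 2 groups alone, and Fev to -0.016 with the block; the cause was not tested. Genes called in MPTP against Ctrl (2) numbered 14 with DESeq2, 0 with limma at either pseudocount, 0 without robust moderation, 6 with the block in the 2 groups and 0 to 4 with 1 library left out. In the diet group against MPTP (0) they numbered 19 with DESeq2, 11 with the block in the 2 groups and 0 to 1 with 1 library left out. In the diet group against Ctrl (0) they numbered 16 with DESeq2, 1 with no filter, 5 with the block, 4 with the 2 groups alone, 36 with the block in the 2 groups and 0 to 4 with 1 library left out. The block changed no call of a member, and the count of called genes in the pathway list was 0 under every alternative. Same-numbered libraries of MPTP and Ctrl correlated at -0.0085, -0.151 and 0.047, and those of the diet group and Ctrl at 0.0782, -0.0073 and 0.00799, so there the numbers were not taken to pair libraries; not every library correlated best with its own number. Of the 15 genes most like the members, 4 were shared with a Spearman ranking, 6 with deviations from group means and 1 without the 2 farthest libraries. Fits that left a group with 2 libraries pooled the spread of all groups. Fev had the fewest reads, 13 in MPTP library 1; for each of the 4 members, the counting intervals of the lowest and highest library of each group did not overlap.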
